A study of Mus musculus with 8 samples.

Results

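The autosomal distal H3K27ac regions described here are stretches of chromosomes 1 to 19 that carried histone H3 lysine 27 acetylation in pachytene spermatocytes (PS) and were still acetylated in round spermatids (RS). Peak intervals of both PS samples were merged into 26333 autosomal regions with an interval from each sample, and 10184 of these were distal, which means that the strongest interval was annotated as intron or intergenic. A distal PS region was kept when at least 1 bp of it was covered by an RS region built in the same way. This rule gave 5551 kept distal regions, 2741 intronic and 2810 intergenic, against 4633 distal regions that were lost. The regions were chosen by their H3K27ac peaks in both stages, and their class by the interval with the highest fold enrichment, so the values of this mark are described without a test.

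H3K27ac ChIP-seq was performed on PS and RS purified from adult wild-type C57BL/6 testes, and RNA-seq on PS and RS from adult testes of C57BL/6 mice that lack both Rnf8 and Scml2 (dKO), with 2 samples for each stage and assay. The study asked where this modification lies in late spermatogenesis and how genes behave when both regulators are missing. The mark and the RNA thus come from mice of different genotype. Cells were fractionated by sedimentation through a BSA gradient, and the dKO fractions were prepared on a small scale that yields PS and RS from the testes of 1 mouse. In such bulk samples fewer cells of a type and less RNA per cell cannot be told apart, and p-values rest on 2 samples per stage. The RNA samples held 9655405 to 12289694 reads on genes and the ChIP-seq samples 38519 to 72928 autosomal intervals.

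H3K27ac is laid down by the acetyltransferases EP300 and CREBBP and marks active promoters and active enhancers, the distal elements that act on genes from introns or from the space between genes. Pachytene spermatocytes are in meiotic prophase, when homologous chromosomes are synapsed and exchange DNA. Round spermatids are the haploid cells that follow and that start to build the acrosome, the flagellum and the condensed sperm chromatin.

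The fractions were checked by marker genes in the dKO RNA. All 12 RS markers (such as Acrv1, Prm1 and Tnp2) rose in RS, where their summed RPKM was 14198 and 15043 against 532 and 891 in PS, and 6 of 10 PS markers fell. All 7 Leydig cell markers fell, from a summed RPKM of 785 and 568 in PS to 72.1 and 45.2 in RS. Of 7 immune and endothelial markers 4 rose and 1 fell, with a sum of 5.49 and 4.63 in PS and 43.3 and 36.7 in RS. Sertoli markers summed to 74.9 and 35.2 in PS and 47.7 and 28.7 in RS, and 2 of the 7 tested rose. Of the 9 spermatogonial markers tested 4 rose and 0 fell, with a sum of 38.7 and 26.3 in PS and 46.9 and 45.9 in RS. Of 5 peritubular markers 1 rose, with a sum of 5.64 and 5.30 in PS and 5.89 and 5.64 in RS. Markers of red blood cells summed to at most 0.369. Over all 14647 genes tested 30.4% rose and 27.6% fell. Rnf8 itself was at 4.02 and 4.88 RPKM in dKO PS and 2.15 and 2.09 in dKO RS, and Scml2 at 0.724 and 1.71 in PS and 0.649 and 1.72 in RS. Where in the disrupted genes these reads lie was not tested, and wild-type RNA was not analyzed here. The fall of Rnf8 (log2 change −1.03 ± 0.25 SE, edgeR adjusted p = 0.0066) was not called without RS replicate 1 (−0.96, adjusted p = 0.0707) or RS replicate 2 (−0.90, adjusted p = 0.0848).

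Sequences of 6 kept regions are shown for the 150 or 300 bases around the strongest PS summit, from the plus strand of GRCm38 (mm10). The first pair belongs to the strongest signals of all, and capitals there mark bases in runs of 12 that also occur in a tandem array on chromosome 9. In the other 4, capitals mark CpG dinucleotides. They were chosen as a strong intronic region near a start, the strong intronic region that was higher in RS, the widest region and the region with the largest fall.
B230118H07Rik-adjacent chr2:98667093-98667242: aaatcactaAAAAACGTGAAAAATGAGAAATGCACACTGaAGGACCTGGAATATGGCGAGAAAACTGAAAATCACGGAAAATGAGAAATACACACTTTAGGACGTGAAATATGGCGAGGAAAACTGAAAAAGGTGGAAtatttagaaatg
Cdon-adjacent chr9:35305341-35305490: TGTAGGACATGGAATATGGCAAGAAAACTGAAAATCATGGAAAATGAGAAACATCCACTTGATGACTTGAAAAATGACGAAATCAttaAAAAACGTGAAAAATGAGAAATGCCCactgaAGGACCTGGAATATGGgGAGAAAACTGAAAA
Meig1 intron chr2:3418758-3419057: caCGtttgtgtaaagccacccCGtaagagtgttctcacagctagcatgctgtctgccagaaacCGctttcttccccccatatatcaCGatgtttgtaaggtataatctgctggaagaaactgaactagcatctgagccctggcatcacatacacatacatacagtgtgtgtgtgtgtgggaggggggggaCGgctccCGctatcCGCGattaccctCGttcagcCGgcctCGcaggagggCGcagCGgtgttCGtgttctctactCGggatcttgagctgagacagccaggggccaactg
Gm2762 intron chr13:53421158-53421457: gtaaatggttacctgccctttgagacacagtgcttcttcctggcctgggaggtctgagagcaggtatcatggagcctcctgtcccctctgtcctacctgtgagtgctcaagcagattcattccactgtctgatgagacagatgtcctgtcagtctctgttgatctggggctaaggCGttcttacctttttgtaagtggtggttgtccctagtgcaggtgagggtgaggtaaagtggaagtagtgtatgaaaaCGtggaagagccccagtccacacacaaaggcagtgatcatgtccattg
Grm4-adjacent chr17:27300424-27300723: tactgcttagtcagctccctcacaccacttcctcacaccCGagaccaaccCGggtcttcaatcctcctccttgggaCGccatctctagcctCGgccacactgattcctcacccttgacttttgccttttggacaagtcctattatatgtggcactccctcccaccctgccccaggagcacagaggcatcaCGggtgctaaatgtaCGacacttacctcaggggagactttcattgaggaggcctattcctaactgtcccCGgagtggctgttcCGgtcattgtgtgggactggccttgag
Slc2a13-adjacent chr15:91229255-91229554: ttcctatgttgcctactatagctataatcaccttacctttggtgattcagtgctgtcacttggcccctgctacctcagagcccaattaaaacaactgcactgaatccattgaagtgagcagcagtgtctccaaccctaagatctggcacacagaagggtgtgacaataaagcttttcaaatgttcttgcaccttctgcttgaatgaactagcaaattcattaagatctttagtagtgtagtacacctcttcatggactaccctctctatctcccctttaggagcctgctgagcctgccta
The Meig1 stretch holds 15 CpG and the Grm4-adjacent stretch 8. The Gm2762 stretch holds 2 and the Slc2a13-adjacent stretch 0.

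Distal regions were kept less often than promoter regions. Of the intronic PS regions 56.1% were kept (95% Wilson interval 54.7 to 57.5%), of the intergenic ones 53.0% (51.7 to 54.4%), and of the promoter regions 86.3% (85.7 to 86.9%). Together the kept distal regions made up 30.2% of all 18395 kept autosomal regions. These intervals cover counting error only and not the difference between replicates, which was larger. With replicate 1 of each stage alone, 67.8% of intronic and 64.5% of intergenic regions were kept, and with replicate 2 alone 43.3% and 47.3%. The order of the intronic and intergenic share was therefore not the same in both pairs, and the replicates had 72928 (RS 1) and 44726 (RS 2) intervals. Promoter regions were above both distal classes in either pair, at 90.9% and 76.3%. The share of distal regions kept ranged over the chromosomes from 50.6% on chromosome 8 to 59.6% on chromosome 5.

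Over groups of PS strength the kept share climbed further for promoter regions than for distal regions. PS regions were placed in 4 groups of fold enrichment with limits that split all distal PS regions evenly. In the strongest group (above 8.21) 97.1% of promoter regions were kept, against 46.7% in the weakest (below 4.65). Between the same groups the intronic share went from 52.0 to 61.7% and the intergenic share from 50.6 to 57.5%. The strongest group has no upper limit and held 8444 of the 11590 promoter regions, against 928 intronic and 1617 intergenic ones. The classes thus differ in their range of strength. In the weakest group promoter regions were kept less often than intronic ones, and also in the next group (52.9 against 57.3%). Width gave a step at its top end. Of 4 even groups of distal regions by width, 67.0% were kept in the widest (over 1133 bp) and 48.9 to 51.7% in the other 3. A wider region meets the rule of 1 bp more easily, so nothing is read from this step.

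**Figure D1:**
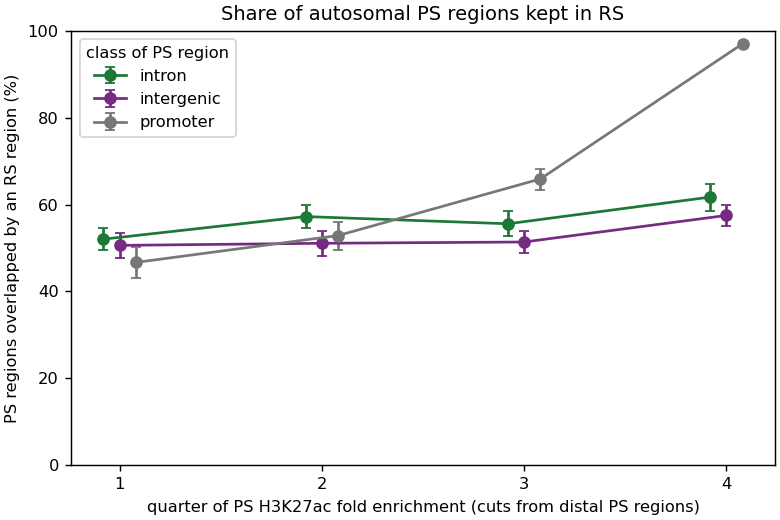
Share of autosomal PS regions overlapped by an RS region (y axis, %) in 4 groups of PS fold enrichment (x axis, limits from the distal regions), for 3 classes, with 95% Wilson intervals. Promoters climb from 46.7 to 97.1%, while both distal classes stay between 50.6 and 61.7%.

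At the edge of the rule, the kept regions with the shortest overlap shared 5 bp with an RS region. They lay in an intron of Ski (chr4:155178102-155178298, fold enrichment 5.35 and 4.93 in PS and 4.88 and 6.39 in RS) and between genes, assigned to Sirt4 (chr5:115474928-115475706, 4.53 and 4.93 in PS and 3.25 and 4.06 in RS). On the other side of the limit, an intronic region of Dak lay 4 bp from an RS region and was not kept (4.53 and 5.48 in PS). Few regions sat near this edge, since 28 kept regions overlapped by 100 bp or less and 33 lost ones had an RS region within 100 bp.

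In PS the kept distal regions were weakly acetylated. Fold enrichment, the ratio of the fragment pileup to a constant background of the sample, had a median of 5.76 and 6.03 in the PS samples, with the middle 80% of regions between 3.70 and 14.4 in replicate 1. Lost regions were at 5.35 and 6.03, and kept promoters at 16.5 and 17.5. In RS, where a kept region takes the highest value of the RS region over it, the medians were 13.0 and 10.4, close to the 15.1 and 11.6 of kept promoters. Intergenic members were stronger than intronic ones in PS (6.17 and 6.58 against 5.35 and 5.48) and not in RS (13.0 and 9.87 against 13.4 and 10.4). Distal regions seen only in RS were weak, with medians of 5.29 and 5.22.

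**Figure D2:**
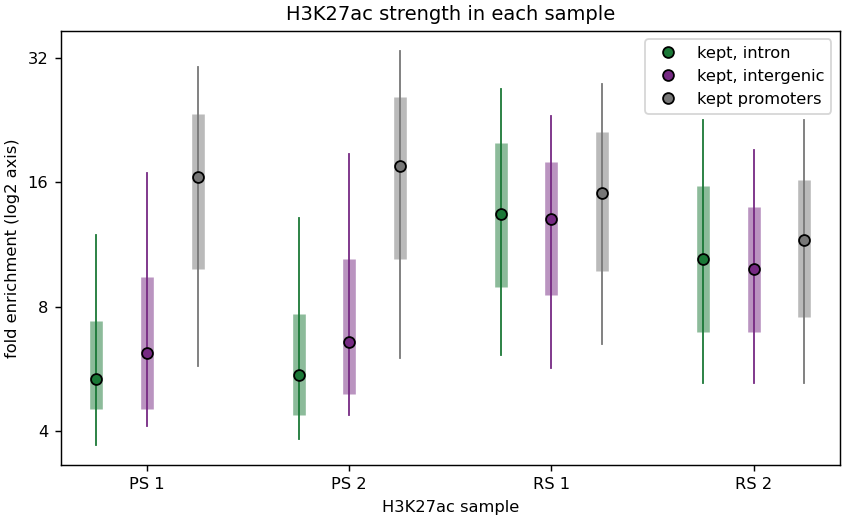
Fold enrichment of H3K27ac (y axis, log2 scale) in each of the 4 samples (x axis) for kept intronic, kept intergenic and kept promoter regions; points are medians, thick bars the middle 50% and thin lines the middle 80% of regions. Distal medians lie near 6 in PS and between 9.87 and 13.4 in RS, and promoter medians go from 16.5 and 17.5 to 15.1 and 11.6.

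The mean log2 fold enrichment of the kept distal regions was 1.04 higher in RS than in PS at the median, which is 2.05-fold (1.19 between the samples of replicate 1 and 0.80 between those of replicate 2). It was 1.11 higher for intronic and 0.94 higher for intergenic regions, while kept promoters were lower by 0.39 (median −0.39). Both RS samples lay above both PS samples in 3937 of the 5551 regions (70.9%), and below both in 983 (17.7%). Among all kept autosomal regions, 40.8% lay above and 39.5% below, and among kept promoters 17.9% and 56.1%. Since the rule used this contrast, nothing is read from these counts. Part of the RS value can come from outside the PS region, because the RS regions were wider. When only summits inside the PS region were used, 4988 regions had one in all 4 samples, and their median difference was 0.84. For the 488 regions whose strongest RS region was of class promoter, the median went from 2.16 over the whole RS region to 0.83 inside. Without regions whose RS partner was a promoter, exon or upstream region, the median was 0.92.

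**Figure D3:**
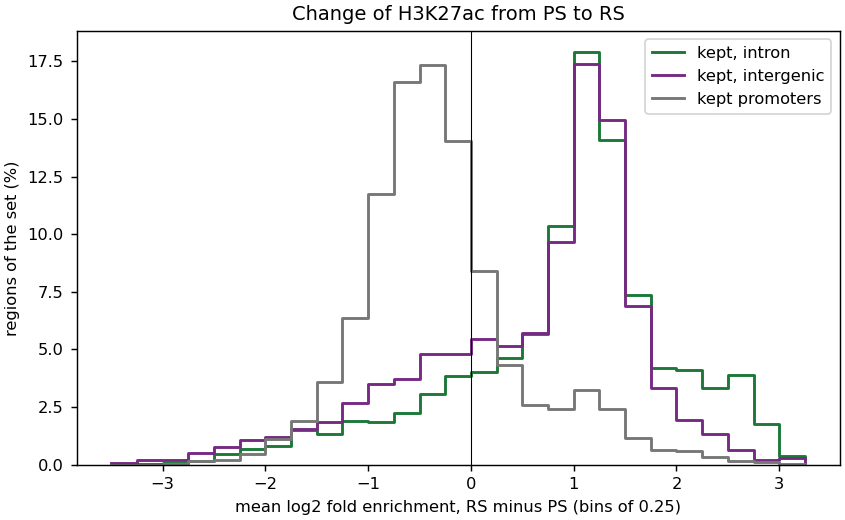
Difference of mean log2 fold enrichment, RS minus PS (x axis, bins of 0.25), as the percentage of regions in each set (y axis). Both distal sets peak between 1 and 1.25 and the kept promoters between −0.50 and −0.25.

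The strength of a kept distal region in PS said little about the highest value of the RS region over it. Across the 5551 regions, the Pearson correlation of the mean log2 values of PS and RS was −0.03 (Spearman 0.01). The replicates correlated at 0.91 in PS and 0.93 in RS (Spearman 0.79 and 0.93). Across the 10004 kept promoters the Pearson correlation of PS and RS was 0.54. These are correlations across regions of the same libraries, and regions are not independent replicates. The RS value can lie outside the PS region, and a correlation from values inside it was not tested. Range of PS strength differed too. In PS replicate 1 the lower and upper quartiles were 4.53 and 8.23 for kept distal regions and 9.88 and 23.5 for kept promoters. In the weakest of the 4 groups of PS strength 93.4% of kept distal regions were higher in both RS samples and 0.292% lower. In the strongest group 31.7% were higher and 53.2% lower, with a median difference of −0.39. The groups were cut on the same PS values that enter the difference. Rises in the weakest and falls in the strongest group follow in part from this, so nothing is read from these shares. PS medians ran from 4.25 to 12.8 over the groups, and RS medians only from 10.5 to 13.6.

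Kept distal regions were short in PS and lay under wider regions in RS. The median width was 698 bp in PS (641 bp intronic, 790 bp intergenic), with 10% under 289 bp and 10% over 1933 bp. Lost regions had a median of 613 bp and kept promoters of 1843 bp. The RS region over a kept region was wider in 84.6% of cases, with a median width of 2342 bp and a median ratio of 2.97. In 75.8% the whole PS region was covered. A single RS region covered 5435 of the 5551, and 4707 different RS regions were involved, so that some RS regions each covered several PS regions. Regions of 5 kb or more in PS were mostly lower in RS. There were 26, of which 24 were intergenic, and 18 of them were lower in both RS samples, with a median log2 difference of −1.40. They were picked by their width in PS. In the strongest group of PS strength 53.2% of kept distal regions were lower too, and 31.7% higher. Whether the wide regions differ from other strong ones was not tested.

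Most kept regions lay far from the transcription starts in the deposited gene tables, as the label distal says. The median distance from the strongest summit was 37.6 kb (18.1 kb for intronic and 58.2 kb for intergenic regions), against 44.0 kb for lost regions, and 40.4% were over 50 kb away. A minority was close, with 778 regions (14.0%) within 5 kb of a start, of which 744 were intronic. A different annotation, GENCODE M21, places a transcript start inside 966 kept regions (17.4%), compared with 6.89% of lost regions and 7.54% of those seen only in RS. Of the 966 regions 396 held a start of a long noncoding RNA and 454 one of a transcript of a protein-coding gene. The 4585 regions without such a start had a median log2 difference of 1.08, and the 966 with one 0.58. Members also lay near each other, since 33.3% were within 1 kb of another member.

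The highest signals of all came from regions that share short words with a tandem array. The strongest kept region was intergenic, at chr2:98662164-98663042, assigned to B230118H07Rik and 1195 kb from the nearest start, that of Lrrc4c, with fold enrichments of 84.8 and 94.3 in PS and 75.3 and 96.9 in RS. Its neighbor at chr2:98666172-98667399 had 72.8 and 93.7 in PS and 71.2 and 96.9 in RS. A region at chr9:35305146-35305615, assigned to Cdon, which encodes a cell surface receptor, had 71.6 and 78.4 in PS and 74.9 and 72.6 in RS. In none of the 3 did the stages separate. Of the 12-base words of their summit windows, 23.9, 66.3 and 52.8% occurred in a stretch of chromosome 9, chr9:2999958-3038275. In this stretch 71.2% of bases are repeated 234 bases further on, against a median of 31.3% over shifts of 20 to 600 bases. The 30-base words of the 3 windows occurred 1, 3 and 1 times in the genome at the median. In 30 kept regions at least 20% of the 12-base words of the summit window occurred in this stretch, 22 of them in the stretch itself, while no other kept region had more than 2.04%. Only 1 lost region and 3 regions seen only in RS reached 20%. The 30 regions had median fold enrichments of 19.8 and 18.6 in PS and 20.3 and 19.4 in RS, and their log2 differences ran from −0.55 to 0.14 (median −0.01), with 29 of them within 0.5 of 0. They had a median GC content of 35.1%. Without them the median difference of the remaining 5521 regions was 1.04. Among the 15 strongest kept regions, 7 belonged to the array set. How reads of such copies were placed by the alignment was not tested.

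Other strong regions lay outside the array. An intronic region of Chl1, which encodes a neural cell adhesion molecule, was the strongest of its class (chr6:103648997-103649358, 56.4 and 63.6 in PS, 51.3 and 69.7 in RS). Its GC content was 29.8%, and 1.84% of its words occurred in the array. A region of 3812 bp in Meig1, a gene needed for the manchette of elongating spermatids, had 38.3 and 41.1 in PS and 30.9 and 24.4 in RS (chr2:3417696-3421507). A region of 2911 bp in an intron of Rara, the retinoic acid receptor alpha gene, had 29.6 and 38.4 in PS and 32.5 and 31.9 in RS (chr11:98941001-98943911). An intronic region of Aida was lower in both RS samples (chr1:183299085-183299636, 37.5 and 32.3 in PS, 26.4 and 27.3 in RS). In Gm2762, annotated as a long intergenic noncoding RNA gene, a region of 4244 bp went the other way (chr13:53419444-53423687, 18.9 and 24.7 in PS, 49.6 and 45.3 in RS, 2.19-fold). Of these 5, the Gm2762 region was thus the one above its PS values in both RS samples.

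The widest kept regions were intergenic. A pair assigned to Grm4, a metabotropic glutamate receptor gene, spanned 29613 bp (chr17:27292414-27322026) and 28646 bp (chr17:27322229-27350874), separated by a short gap. The first had 24.7 and 21.4 in PS and 23.2 and 19.2 in RS. The second had 45.7 and 46.0 in PS and 19.5 and 15.1 in RS, 2.67-fold lower. Their acetylation in RS was broken into 13 and 10 separate regions. The nearest deposited start was that of Lemd2, and Grm4 RNA was at 0.147 RPKM in PS replicate 1. Another, of 14250 bp, was assigned to C2cd4b (chr9:67710308-67724557, 30.5 and 40.0 in PS, 34.2 and 27.3 in RS). The widest intronic regions were in Prkce and Ptprm, which encode a protein kinase C and a receptor tyrosine phosphatase, and in Sh3bp5. All 3 were lower in both RS samples, for Prkce from 44.0 and 48.2 to 11 and 7.55 and for Ptprm from 36.2 and 42.2 to 7.32 and 5.81.

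The regions with the largest differences in either direction were ranked on the same PS and RS values that describe them. Weak PS values of the rises and strong ones of the falls follow in part from this. Nothing is read from this contrast. The 4 largest rises were short intronic regions of 251 to 641 bp in Rbbp6, Gm2762, Kdm5b and Paip2, with fold enrichments of 3.29 to 4.94 in PS and 30.8 to 49.6 in RS, a log2 difference of 3.35 to 3.47 (up to 11.1-fold). Each lay under an RS region of 5575 to 14391 bp, which was of class promoter in 3 of the 4. Inside the PS region itself the values in RS were 6.10 and 6.97 for Kdm5b, 6.10 and 3.48 for Paip2 and 12.6 and 10.4 for Gm2762. The 4 largest falls were wide regions of 1292 to 4504 bp with strong acetylation in PS. In the region assigned to Slc2a13 (chr15:91226780-91231283) the values went from 37.0 and 47.1 to 3.66 and 4.64, 10.1-fold, and in the one assigned to Chrm1 from 39.1 and 53.2 to 4.48 and 4.64. In an intron of Gpc6 they went from 32.9 and 35.6 to 3.25 and 4.64, and in the one assigned to Prdm2 from 32.1 and 37.3 to 2.85 and 4.64. These falls were nearly as large inside the PS region, at −3.26 on the log2 scale for Slc2a13.

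**Figure D4:**
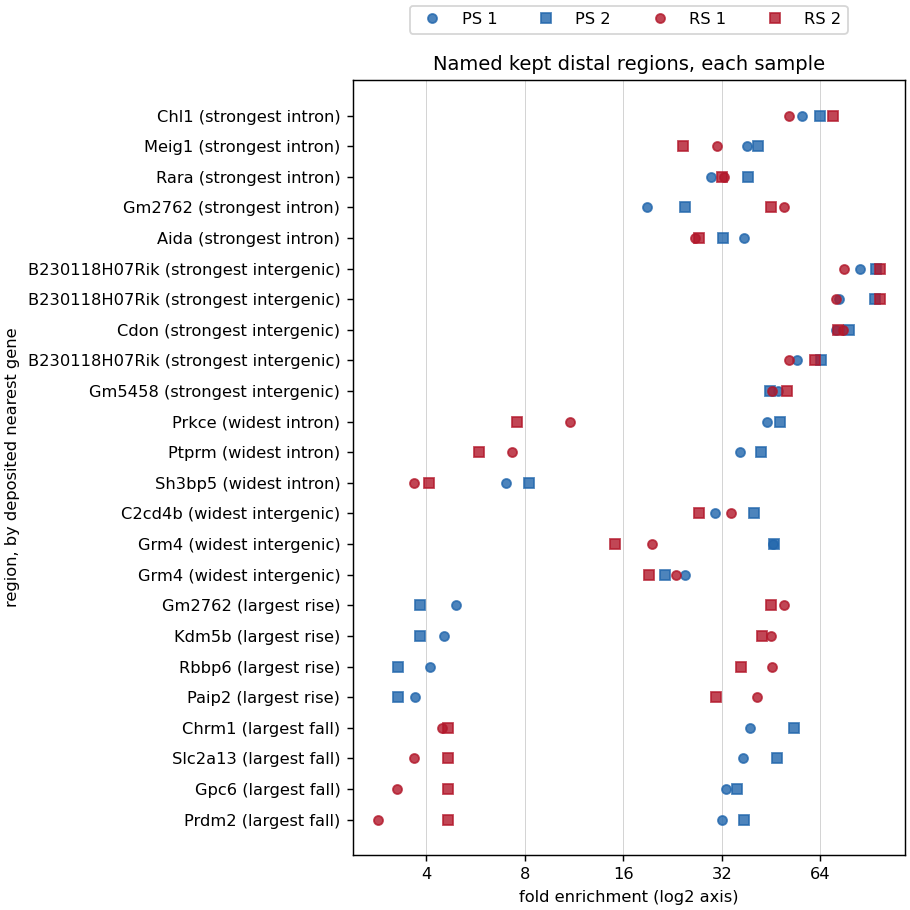
Fold enrichment (x axis, log2 scale) of named kept distal regions (y axis, labelled by the deposited gene and the reason for naming) in PS (blue) and RS (red), circles for replicate 1 and squares for replicate 2. The strongest intergenic regions show no separation of the stages, the largest rises start between 3.29 and 4.94 in PS, and the largest falls end between 2.85 and 4.64 in RS.

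Kept regions were spread over 3158 deposited genes, 1933 of which had 1 region and 142 had 5 or more. The gene with 22 array regions was Mir101c. Pisd-ps2, a pseudogene, also had 22, on chromosome 17 between 3010140 and 3051550, and 19 of these were higher in both RS samples (median log2 difference 1.51). Its RNA was at 8.51 and 19.4 RPKM in PS and 2.70 and 3.14 in RS and fell (log2 change −2.23 ± 0.39 SE, edgeR adjusted p = 0.00124). Trpm1, a cation channel gene, had 18 intergenic regions, 16 of them higher in both RS samples and none lower, with a median difference of 1.57. Its RNA was at 3.28 and 2.12 RPKM in PS and 0.151 and 0.401 in RS and fell (−3.34 ± 0.40, adjusted p = 0.000131). Gm13152 had 19 regions, 9 higher and 7 lower, whose 30-base words occurred 2 times in the genome at the median. Its RNA was at 3.67 and 3.12 RPKM in PS and 7.14 and 7.52 in RS and rose (1.15 ± 0.24, adjusted p = 0.00306). Only RNA reads with a unique alignment were kept. Reads shared by near-identical copies of pseudogenes and gene families are thus missing from the RNA. How ChIP-seq reads of such copies were placed was not tested, so these values are uncertain.

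A larger share of the deposited nearest genes of kept distal regions rose in dKO RS than of all genes. The deposited gene had the nearest start of the gene tables for 59.7% of kept regions and for 46.8% of the intergenic ones. Of the 3158 deposited genes 2538 passed the filter of 10 reads in 2 samples, and in edgeR's test of RS against PS at an adjusted p of 0.05 and 1.5-fold 955 of them rose (37.6%) and 586 fell (23.1%). Over all 14647 genes tested 30.4% rose and 27.6% fell. The median log2 fold change was 0.28 for the genes of kept regions and 0.01 over all genes. Genes of intronic regions were further from all genes (39.5% rose, 22.0% fell, median 0.34) than genes of intergenic ones (35.3 and 24.8%, median 0.19). For lost regions the shares were 32.6 and 25.5%, for regions seen only in RS 38.8 and 23.2%, and for kept promoters 25.3 and 32.5%. Many genes belong to several of these sets. Of the 1083 genes with kept but neither lost nor RS-only distal regions 864 were tested, of which 34.6% rose and 23.8% fell. No test of the lists was made, so the differences between them are descriptions.

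The RNA of the nearest genes followed the direction of the mark to a limited degree. Each gene was placed by its strongest region into 1 of 3 groups of the log2 difference between RS and PS, with limits at 0.56 and 1.27 taken over all kept regions. In the lowest group 26.3% rose and 29.1% fell, in the middle group 42.6% and 18.9%, and in the highest group 45.7% and 21%. For intronic regions the share that rose went from 23.3% to 45.0% and 46.4%, and for intergenic ones from 29.2% to 38.7% and 43.1%. Across the 2538 genes the correlation of both log2 differences was 0.16 (Pearson and Spearman), 0.18 for genes of intronic and 0.11 for genes of intergenic regions (Pearson). Groups and correlation used the highest value of the whole RS region. For 488 kept regions with an RS region of class promoter, the median difference was 2.16 this way. Inside the PS region it was 0.83, for the 355 with a summit there in all 4 samples. Groups and correlation from values inside the PS region were not tested. Regions more than 5 kb from every start gave 37.3% that rose and 22.8% that fell, and regions without a GENCODE start 37.2 and 23.3%. The number of regions per gene made no clear order, with 37.6% rising for genes with 1 region and 35.1% for genes with 5 or more. The mark was measured in wild-type and the RNA in dKO cells, so genotype and assay cannot be told apart here.

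**Figure D5:**
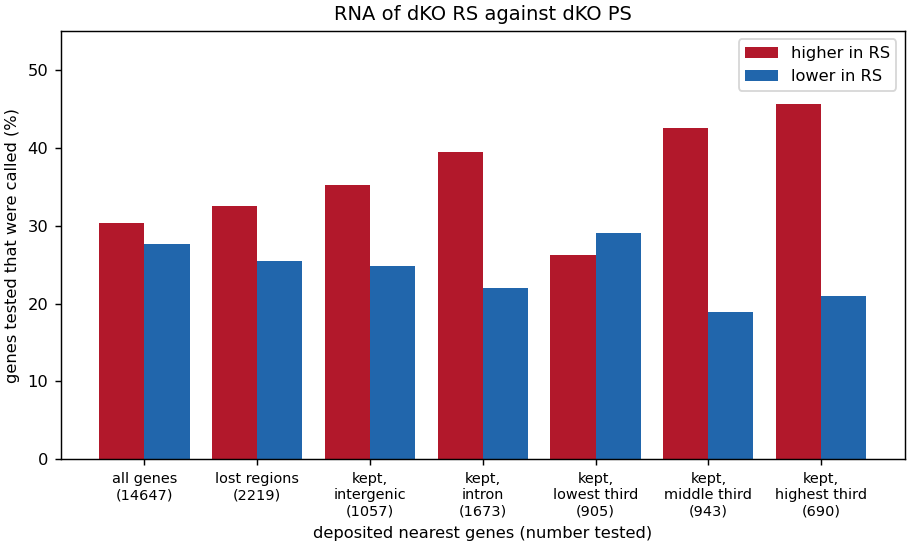
Percentage of tested genes (y axis) called higher (red) or lower (blue) in dKO RS than in dKO PS, for all genes and for deposited nearest genes of lost and kept distal regions, the last also by 3 groups of the H3K27ac difference (x axis, number tested in parentheses). The share that rose is 30.4% over all genes and 26.3, 42.6 and 45.7% in the 3 groups.

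Genes of kept intronic regions were expressed at a higher level than genes of kept intergenic regions, with median RPKM of 6.17 and 6.69 in PS and 7.48 and 8.02 in RS against 0.884 and 0.793 in PS and 1.29 and 1.37 in RS. A kept H3K27ac region at a promoter was assigned to 55.1% of the genes with an intronic and 40.1% of those with an intergenic region, compared with 41.7% of genes with a lost distal region and 35.7% of autosomal genes in the RNA tables.

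Among nearest genes with an RPKM of at least 5 in both samples of the higher stage, the largest rises were those of C1qb, 1700027A15Rik, Ppp2r2b, 1700012A03Rik, 1700008P02Rik, Adc, 4930567H12Rik and 1700019M22Rik, from 15.4-fold to 27.7-fold. That of 1700008P02Rik rested on 2 and 10 PS reads, with a log2 change of 4.26 that was 3.47 without PS replicate 1 and 5.86 without PS replicate 2. RNA of 1700027A15Rik was at 10.8 and 19.3 RPKM in PS and 339 and 372 in RS (log2 change 4.62 ± 0.25 SE, edgeR adjusted p = 3.79e-06). The region in its intron went from 6.17 and 4.93 in PS to 22.0 and 19.7 in RS. Here and below, RS values of a region are the highest of the whole RS region over it, which can lie outside the PS region. Ppp2r2b, a regulatory subunit gene of protein phosphatase 2A, was at 1.19 and 1.31 RPKM in PS and 24.7 and 23.2 in RS, and its strongest intronic region had 7.82 and 10.4 in PS and 17.1 and 14.5 in RS. RNA and mark did not always move together. Adc, which encodes a regulator of polyamine synthesis, was at 3.75 and 4.93 RPKM in PS and 65.2 and 74.5 in RS, while its intergenic region went from 14.4 and 14.3 to 9.76 and 6.39. C1qb, a complement gene of macrophages, was at 0.33 and 0.509 RPKM in PS and 11.3 and 11.8 in RS, and its region was lower in RS (24.3 and 18.1 to 8.95 and 5.81). The summed immune and endothelial markers given above rose in the same samples, and their part in the rise of C1qb was not tested. Of the 8 strongest regions of these genes, 5 were higher and 3 lower in both RS samples.

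Under the same limit the largest falls, from 17.0-fold to 35.2-fold, were those of 4921525O09Rik, Fam13c, Zfp389, Piwil1, Fam174b, Speer1-ps1, Mgll and Cyp17a1. The log2 change of Fam13c, with 3 and 14 RS reads, was −4.80 and became −3.89 without RS replicate 1 and −6.29 without RS replicate 2. Piwil1, which encodes the piRNA-binding protein MIWI, was at 286 and 326 RPKM in PS and 9.91 and 17.6 in RS (log2 change −4.45 ± 0.26, adjusted p = 4.48e-06). The kept region in its intron (321 bp, chr5:128739968-128740288) was weak and went from 3.70 and 3.84 in PS to 6.51 and 5.81 in RS. Mgll, a monoacylglycerol lipase gene, was at 94.1 and 88.6 RPKM in PS and 4.25 and 6.24 in RS, while its intronic region went from 8.23 and 7.13 to 15.5 and 13.9. Of the 8 genes only Zfp389 had a strongest region that was lower in both RS samples, 6 had one that was higher, and that of Speer1-ps1 overlapped. Cyp17a1, an enzyme of androgen synthesis in Leydig cells, was at 75.3 and 53.0 RPKM in PS and 4.27 and 3.0 in RS. All 7 Leydig markers, of which it is one, fell in the same samples, and the part of Leydig cells in this fall was not tested.

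The gene lists are described by counts, to be read against all 14647 genes tested, of which 17.3% had a kept distal region, 30.4% rose, 27.6% fell and 42.0% were not called (39.3% of the 2538 genes with a kept region). Of the 24 transcription factor genes listed 12 had a kept distal region. RNA of 5 of these rose and of none fell, and of the 23 tested in the list 9 rose and 2 fell. Rfx1, an RFX family factor, was at 4.61 and 7.38 RPKM in PS and 37.7 and 38.6 in RS and rose (log2 change 2.71 ± 0.22 SE, edgeR adjusted p = 1.71e-05). Its intronic region of 451 bp, 2.70 kb from a start, had 4.12 and 4.38 in PS. The whole RS region over it had 26.9 and 21.5. Rfx2, a regulator of spermatid genes, was high at both stages (113 and 132 RPKM in PS, 109 and 123 in RS, log2 change −0.04, 0.13 without PS replicate 2 and 0.14 without RS replicate 1), with a region at 11.1 and 13.7 in PS and 23.6 and 21.5 in RS. Rfx4 had 27.7 and 30.6 RPKM in PS and 21.5 and 17.6 in RS and was not called. Kctd19, a meiotic partner of ZFP541, had 199 and 234 in PS and 148 and 144 in RS and was called lower only when PS replicate 1 was left out (log2 change −0.68). Of the 18 genes of translational control 8 had a region, of which 4 rose and none fell, while in the whole list 8 rose and 2 fell. Cpeb4, an RNA-binding regulator of cytoplasmic polyadenylation, rose from 17.1 and 14.1 RPKM to 25.8 and 23.8, and Eif4g3, a translation initiation factor gene, was at 113 and 121 in PS and 101 and 105 in RS. The region assigned to Dazl, a germ cell RNA-binding protein gene, was 3592 bp wide and went from 31.3 and 33.4 in PS to 7.32 and 5.81 in RS. Dazl RNA was at 29.5 and 21.7 RPKM in PS and 34.6 and 39.3 in RS (log2 change 0.58 ± 0.16), just under the 1.5-fold limit, and was called higher without PS replicate 1 (0.77) and without RS replicate 1 (0.75). With the replicate number as a block it was also called (log2 change 0.59, adjusted p = 0.00993). The region assigned to Pum2 was lower too, from 16.9 and 18.1 to 9.76 and 7.55.

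Of the 28 genes that write, remove or read acetylation, 7 had a kept distal region, and 5 of the 7 rose while none fell. In the whole list 7 rose and 11 fell, while over all genes tested 30.4% rose and 27.6% fell. Hdac11, a histone deacetylase gene, was at 0.809 and 3.54 RPKM in PS and 7.37 and 20.8 in RS (log2 change 2.72 ± 0.63, edgeR adjusted p = 0.00517), a change that ran from 1.90 without RS replicate 2 to 4.2 without PS replicate 2. Its intronic region of 398 bp, 1.35 kb from a start, had 4.94 and 4.38 in PS. The whole RS region over it had 28.9 and 23.8. Cdyl2, a chromodomain gene, rose from 1.92 and 1.93 RPKM to 3.22 and 3.26, and Hdac9, also among the 5, had 4 and 7 reads in PS and 47 and 32 in RS (at most 0.481 RPKM). Ep300, the acetyltransferase gene, was at 5.86 and 4.79 RPKM in PS and 5.51 and 6.00 in RS and was not called, and the region assigned to it went from 11.5 and 11 to 7.32 and 5.81.

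Of 30 genes of synapsis and recombination (6 rose and 9 fell) 5 had a region, of which Tex15 rose from 3.97 and 4.22 RPKM to 18.4 and 25.7 (log2 change 2.47 ± 0.18, edgeR adjusted p = 9.72e-06). Over all genes tested 30.4% rose, 27.6% fell and 17.3% had a kept region. Trip13, a remodeler of meiotic HORMA proteins, was at 4.92 and 4.45 RPKM in PS and 5.39 and 4.53 in RS. Msh4, a crossover gene, was at 3.88 and 3.98 in PS and 2.79 and 3.34 in RS. Mnd1 had few reads, at 2.21 and 0.824 RPKM in PS and 2.04 and 2.62 in RS, and was called higher only without PS replicate 1 (log2 change 1.48). The regions named for these 4 genes were all higher in both RS samples, as for Msh4 from 8.23 and 9.32 to 27.7 and 22.6. Of 18 genes of the meiotic divisions (4 rose and 7 fell) 3 had a region. Cdk1, the kinase that drives division, fell from 19.9 and 19.7 RPKM to 6.32 and 5.64, while its region went from 8.64 and 7.13 to 25.6 and 20.3. Tex14, a gene of the bridges between germ cells, had 10 regions and was at 22.2 and 25.7 RPKM in PS and 20.2 and 21.1 in RS. Bub1, a checkpoint kinase gene, was at 24.7 and 22.4 in PS and 30.5 and 33.5 in RS and was called higher only without RS replicate 1 (log2 change 0.64). Of 19 genes of the piRNA pathway (1 rose and 11 fell) 3 had a region. Piwil1 fell, and the Tudor domain genes Tdrd7 (121 and 133 RPKM in PS, 111 and 120 in RS) and Rnf17 (46.2 and 36.1 in PS, 42.4 and 42.6 in RS) were not called, although regions of both were higher in RS.

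Of 26 acrosome genes 13 rose and 2 fell, and 4 had a kept region, while over all genes tested 30.4% rose and 27.6% fell. Eqtn, a protein gene of the acrosome membrane, rose from 13.4 and 14.4 RPKM to 122 and 86.8 (log2 change 2.95 ± 0.20 SE, edgeR adjusted p = 7.37e-06), and Spaca7 rose from 8.99 and 18.3 to 103 and 110 (log2 change 3.0, 3.66 without PS replicate 2). Spata16, needed to form the acrosome, was at 197 and 232 RPKM in PS and 162 and 153 in RS and was not called. Spesp1 was at 80.8 and 88.7 in PS and 128 and 118 in RS, just under the 1.5-fold limit (log2 change 0.58), and was called higher without PS replicate 2 (0.70), RS replicate 1 (0.60) or RS replicate 2 (0.74). Of 36 genes of the flagellum and sperm metabolism 22 rose and 4 fell, and 14 had a kept region, of which 7 rose and 1 fell. Odf2, of the outer dense fibers, rose from 773 and 895 RPKM to 1831 and 1827, and its intronic region from 4.12 and 6.03 to 39.9 and 37.2. Dnah8, an axonemal dynein gene, fell from 767 and 546 RPKM to 214 and 206, while its region went from 5.76 and 8.22 to 24.0 and 19.2. Ldhc, the germ cell lactate dehydrogenase gene, was at 3357 and 3343 RPKM in PS and 2358 and 2276 in RS, and Meig1 at 1079 and 1083 in PS and 1423 and 985 in RS, and neither was called. None of the 17 genes of spermatid chromatin, which include the protamine and transition protein genes, had a kept distal region. Of all genes tested 17.3% had one. Of the 16 tested in this list 9 rose and 4 fell.

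Kept distal regions were poorer in CpG than kept promoters. In windows of 500 bp around the strongest summit the median GC content was 49.0% in kept, 48.0% in lost and 46.8% in RS-only distal regions, against 62.0% in kept promoters. The ratio of observed to expected CpG was 0.20, 0.23, 0.16 and 0.73 in the same order. It reached 0.6 in 6.90% of kept distal regions, and in 70.1% of kept promoters. A ratio of 0.6 was reached by 21.1% of the 983 lower and 1.70% of the 3937 higher regions, and the GC box GGGCGG occurred in 30.6% and 9.75%, against 31.1% of all 27204 windows (kept, lost and RS-only distal regions and kept promoters). The 6 letters TAACNG, which MYB proteins bind and of which A-MYB is a regulator in pachytene spermatocytes, occurred in 44.4% of kept and 53.5% of lost regions, in 50.6% of the lower and 43.6% of the higher ones, in 44.1% of RS-only regions, in 30.3% of kept promoters and in 40.7% of all windows. CATGGNAAC, part of the site of RFX factors, occurred in 4.88% of kept, 3.30% of lost, 4.50% of RS-only and 2.1% of promoter regions, and in 3.49% of all windows. The cAMP response element TGACGTCA was in 1.03% of kept regions and 1.27% of all windows, and TGACGT, which lies within it, in 6.25% and 7.46%. CACGTG was in 8.67%, AACAAT in 19.0%, TGANTCA in 13.5% and AGGTCA in 29.9% of kept regions, and in 9.06%, 16.5%, 11.7% and 27.1% of all windows. Both strands were searched, and a match is a description of letters and not of binding.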

How the data were processed

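H3K27ac was profiled by ChIPmentation in wild-type cells and RNA by sequencing of amplified cDNA in dKO cells, with 2 samples per stage as given by the labels. ChIP-seq reads were aligned by the authors with Bowtie (mm10), and MACS2 was run on every sample separately; the submitters' processing notes give versions 1.1.1 and 2.1.0.20140616, and the paper's methods name earlier ones. For every summit the deposited lists give the pileup signal, the fold enrichment as a ratio over 1 background constant per sample (0.723 to 1.46 fragments) after 1 was added to both, and −log10 p-values and q-values. No read totals are given, so ChIP-seq depth is unknown beyond these constants. For RNA-seq the authors aligned reads with STAR 2.4.2a, kept unique alignments, and split reads among RefSeq isoforms; they deposited the estimated counts, which are whole numbers, and the RPKM. The region class and nearest gene are those deposited.

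Each interval took the values of its strongest summit, intervals were merged, and overlap needed 1 bp. Wilson intervals are at 95%. Counts summed to genes were tested with edgeR 4.0.16 (R 4.3.3) by the quasi-likelihood test with TMM and Benjamini-Hochberg adjustment over 14647 genes with 10 counts in 2 samples, at 0.05 and 1.5-fold. DESeq2 1.42.0 was an alternative. Exact permutation tests were not run, since 2 samples against 2 cannot give a p below 0.05. RPKM served for levels only. Sequence came from GRCm38.p6, and all interval ends lay within its chromosomes. The merging and the tests were tested on simulated data. Python 3.11.15, pandas 2.3.3, NumPy 2.4.6, SciPy 1.17.1 and matplotlib 3.10.9 were used.

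The regions, gene lists and naming rule were chosen with earlier results of these data known. Named were the 5 strongest and 3 widest regions of each class, the 4 largest rises and falls without overlap, the 4 genes with most regions, the 2 regions on each side of the overlap limit, the 8 nearest genes with the largest RNA rise and fall among those with an RPKM of at least 5 in both samples of the higher stage, up to 4 genes per list by their strongest region, and Rnf8 and Scml2. Alternatives covered the overlap, the replicates, the peak threshold, the number of intervals, the class, the scaling, the gene assignment, and the RNA tool, filter and block. The sex chromosomes and unannotated intervals were left out. Sequences of chromosome 18 are not shown. One of the regions named by this rule is not reported here.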

Additional observations from a re-analysis of the deposited data

How the results depend on the processing

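Of the 10184 distal PS regions, 5551 were kept (54.5%), 49.4% of the kept ones were intronic, and their median width was 698 bp. Requiring 0.5 of the length of both regions to be covered left 1651 regions (16.2% kept, 39.1% intronic, 1281 bp). Using intervals of either replicate gave 15001 (59.2%, 56.9%, 310 bp). A −log10 p of at least 5 gave 52.3% kept, 47.1% intronic and 835 bp, and equal numbers of intervals 52.1% and 750 bp. Over 5 kb from every start, 52.8% were kept, 41.8% were intronic, and the width was 750 bp. With the replicate number as a block (PS 1 against RS 1, PS 2 against RS 2) 10703.5 regions were kept on average (55.6%, 54.5% intronic, 311 bp). Leaving out 1 H3K27ac sample at a time gave 5524 to 10678 regions, 48.1 to 68.4% kept, 48.9 to 56.1% intronic and widths of 293 to 711 bp, since a region then needs an interval from fewer samples. The median log2 difference of RS and PS, 1.04, was 1.40 after division by the median of kept promoters, 1.14 from pileup over background, and 0.85 to 1.19 with 1 sample left out. In alternatives chosen after seeing the data it was 0.84 with summits inside the PS region, 1.04 without the array regions and 0.92 with distal RS regions only. Of the nearest genes 955 rose and 586 fell (978 and 590 with the replicate block, 876 and 536 with DESeq2, 769 and 470 over 5 kb from every start, and 786 to 992 and 439 to 600 with 1 RNA sample left out). Their median log2 change of 0.28 became 0.37 with no filter on low counts. The method yields both stages from 1 mouse, but which numbers share a mouse is not stated (correlation of deviations of same-numbered RNA samples 0.22, in 2 pairs). Over all genes 8497 calls became 8723 with the block, and 7448 with DESeq2. Of 323 values of 47 named genes, 311 kept their call, 2 lost it (Rnf8), 10 gained one (Mnd1, Bub1, Kctd19, Spesp1 and Dazl), and none changed direction with a call; Dazl gained one with DESeq2 and with the block. Changes of 5 uncalled genes near 0 (Rfx2, Meig1, Tdrd7, Rnf17 and Scml2) took the other sign without 1 library, for Scml2 from −0.02 to 0.77 without PS replicate 2. ChIP-seq depth is unknown, so the different number of intervals per sample limits counts of kept regions.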
